A study of Mus musculus with 8 samples.

Results

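Sox4, Tcf7, Lef1, Satb1, Bach2, Foxp1, Actn1, Nsg2 and Igfbp4 are 9 genes that mark naive and memory-like states of T cells. Their mRNA was followed in follicular helper T (Tfh) cells with and without a reporter mark of a Th17 past. They were chosen by name with earlier results of these data known, 9 of the 16735 genes listed in both experiments of the study. All 9 passed the filter on low counts. Shares of all genes set beside counts of the 9 or of a gene list are therefore descriptions, not tests. The cells came from K/BxN mice, which develop autoimmune arthritis, carrying a Th17 fate-mapping reporter that marks cells with ZsGreen once they have passed through the Th17 state. Tfh cells were sorted as CXCR5+ PD-1+ CD25- CD4+ TCRβ+ cells and split by the reporter into 4 groups of 2 libraries: ZsGreen+ and ZsGreen- cells of Peyer's patch, and ZsGreen+ and ZsGreen- cells of spleen. No source used here gives the age of the mice, the Cre driver of the reporter or the number of animals behind a library. Unmarked (ZsGreen-) cells are thus not shown to lack a Th17 past.

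Naive and central memory T cells are held in a resting, long-lived state by a set of transcription factors. TCF-1, the product of Tcf7, and LEF-1 bind DNA through a high mobility group (HMG) box and also promote the Tfh fate, and SOX4 carries a related HMG box. SATB1 organises chromatin loops in T cells, BACH2 represses effector genes, and FOXP1 keeps naive T cells quiescent. Actn1 encodes the actin cross-linker α-actinin 1, Nsg2 a membrane protein first described in neurons, and Igfbp4 a secreted protein that binds insulin-like growth factors. The last 3 are best known in T cells as genes whose mRNA is high in naive cells.

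In the mm39 coordinates of the deposited tables, Sox4 lies on chromosome 13 from 29132902 to 29137696, Tcf7 on chromosome 11 from 52143198 to 52174158 and Lef1 on chromosome 3 from 130904120 to 131018005. Satb1 spans 52043215 to 52140318 on chromosome 17, Bach2 spans 32238804 to 32586108 on chromosome 4 and Foxp1 spans 98902299 to 99499682 on chromosome 6. Actn1 is on chromosome 12 from 80214321 to 80307145. Nsg2 and Igfbp4 are both on chromosome 11, from 31950463 to 32009202 and from 98932070 to 98945218. By the GENCODE M21 annotation, exons of the antisense gene Gm26735 cover 54.6% of the exon length of Sox4. Gm26735 is not listed under its gene ID in the deposited counts of either experiment, so no level of it can be given. Exons of the antisense gene Gm43352 cover 13.7% of that of Lef1, with a mean count of 212 per library against 2960 for Lef1. A non-directional preparation is among those the labels name. In it, strand cannot tell apart reads within the exon bases that such a gene and its partner share.

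The 250 bases before the transcription start are shown for 4 of the genes: Sox4 and Actn1, which were lower in ZsGreen+ cells of both tissues, and Lef1 and Bach2, in which a TCF/LEF core was found. They are from RefSeq on build GRCm38.p6, read 5′ to 3′ on the gene's strand, and the Lef1 window is that of the last of its 4 listed starts. Capitals mark the TCF/LEF core CTTTGA and the SOX core ACAATG, each searched on both strands (TCAAAG and CATTGT).

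Sox4, chr13:28953700-28953949, minus strand: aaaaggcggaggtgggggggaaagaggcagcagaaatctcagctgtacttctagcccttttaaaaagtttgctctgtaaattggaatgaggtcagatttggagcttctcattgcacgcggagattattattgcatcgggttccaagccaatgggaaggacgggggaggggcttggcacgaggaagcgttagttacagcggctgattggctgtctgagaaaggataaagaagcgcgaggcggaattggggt

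Actn1, chr12:80260364-80260613, minus strand: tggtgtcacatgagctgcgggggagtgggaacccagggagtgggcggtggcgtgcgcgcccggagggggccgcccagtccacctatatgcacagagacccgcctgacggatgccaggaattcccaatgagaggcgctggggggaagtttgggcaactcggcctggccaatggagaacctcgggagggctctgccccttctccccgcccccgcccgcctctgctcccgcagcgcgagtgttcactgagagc

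Lef1, chr3:131156044-131156293, plus strand: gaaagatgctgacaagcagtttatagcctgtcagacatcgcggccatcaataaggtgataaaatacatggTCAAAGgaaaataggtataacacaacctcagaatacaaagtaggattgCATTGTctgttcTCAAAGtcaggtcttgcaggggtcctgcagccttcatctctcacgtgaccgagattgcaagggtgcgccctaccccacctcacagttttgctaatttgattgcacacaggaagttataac

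Bach2, chr4:32417185-32417434, plus strand: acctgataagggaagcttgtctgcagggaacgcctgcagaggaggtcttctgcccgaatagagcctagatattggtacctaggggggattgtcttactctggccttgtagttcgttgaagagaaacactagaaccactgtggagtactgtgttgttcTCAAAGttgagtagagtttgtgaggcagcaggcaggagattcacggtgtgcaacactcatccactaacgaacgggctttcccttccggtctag

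The TCF/LEF core stood in 3 of the 20 upstream windows listed for the 9 genes, 1 each of Lef1, Bach2 and Foxp1, and in 13.8% of all 32817 windows of this length. The SOX core stood in 2 of the 20, in Lef1 and Foxp1, against 10.7% of all windows. The AP-1 and BACH element TGAGTCA (reverse TGACTCA) and the forkhead element TGTTTAC (reverse GTAAACA) stood in 0 of the 20, against 4.46% and 3.16% of all windows. No match overlapped another. A match is a description of the letters, and a window without one tells nothing about binding.

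Libraries held 10009823 to 15323743 estimated counts. Replicate 1 of every group belonged to experiment 1 and replicate 2 to experiment 2, and nothing in the labels says that replicates came from separate animals, so a p-value here measures only how far these samples spread, and part or all of that spread may be technical. The experiments differed in the level of some of the genes: Actn1 was 7.76 to 11.1 times as high in experiment 1 as in experiment 2 in the 4 groups, Nsg2 2.18 to 3.22 times and Bach2 2.08 to 3.92 times, while Lef1 had 0.444 to 0.589 of its experiment 2 level. All comparisons were therefore made within experiments, in 1 fit with a term for the experiment, and for the sort contrasts the log2 difference within each experiment is given beside the fitted one. Without that term 0 of the 9 genes, and 0 of all genes, passed in any of the comparisons. All 10 T cell identity markers (such as Cd3e, Cd4 and Trac) were detected in every library, with summed levels of 7090 to 8050 CPM (counts scaled to a common, TMM-adjusted library size) in experiment 1 and 35200 to 57700 CPM in experiment 2. In the spleen sort contrast 1 of the 10 was lower in ZsGreen+ cells, Cd3e at -0.83 ± 0.22 (edgeR, adjusted p = 0.0426), where edgeR called 4.09% of all genes lower. DESeq2 called 2 lower, and the median log2 fold change was -0.35 against -0.03 for all genes. In bulk RNA, fewer cells expressing a gene and less of its RNA per cell cannot be told apart.

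Per kilobase of exon, Tcf7 had the highest level of the 9 genes in all 8 libraries, 281 to 897 CPM per kb. Igfbp4 ranged from 0.102 to 4.93 CPM per kb and Sox4 from 0.278 to 9.71. The other 6 genes lay between 0.423 and 82.2 CPM per kb, Nsg2 having the top of that range and Bach2 its bottom. Levels spread over the 4 groups by up to 35.0-fold for Sox4 and 48.4-fold for Igfbp4 in experiment 1, and by 16.4-fold and 30.4-fold in experiment 2. For the other 7 genes the spread was 1.48-fold to 3.85-fold in experiment 1 and 1.61-fold to 3.93-fold in experiment 2. The order of the 4 groups was the same in both experiments for Sox4, Tcf7, Satb1 and Actn1.

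**Figure D1:**
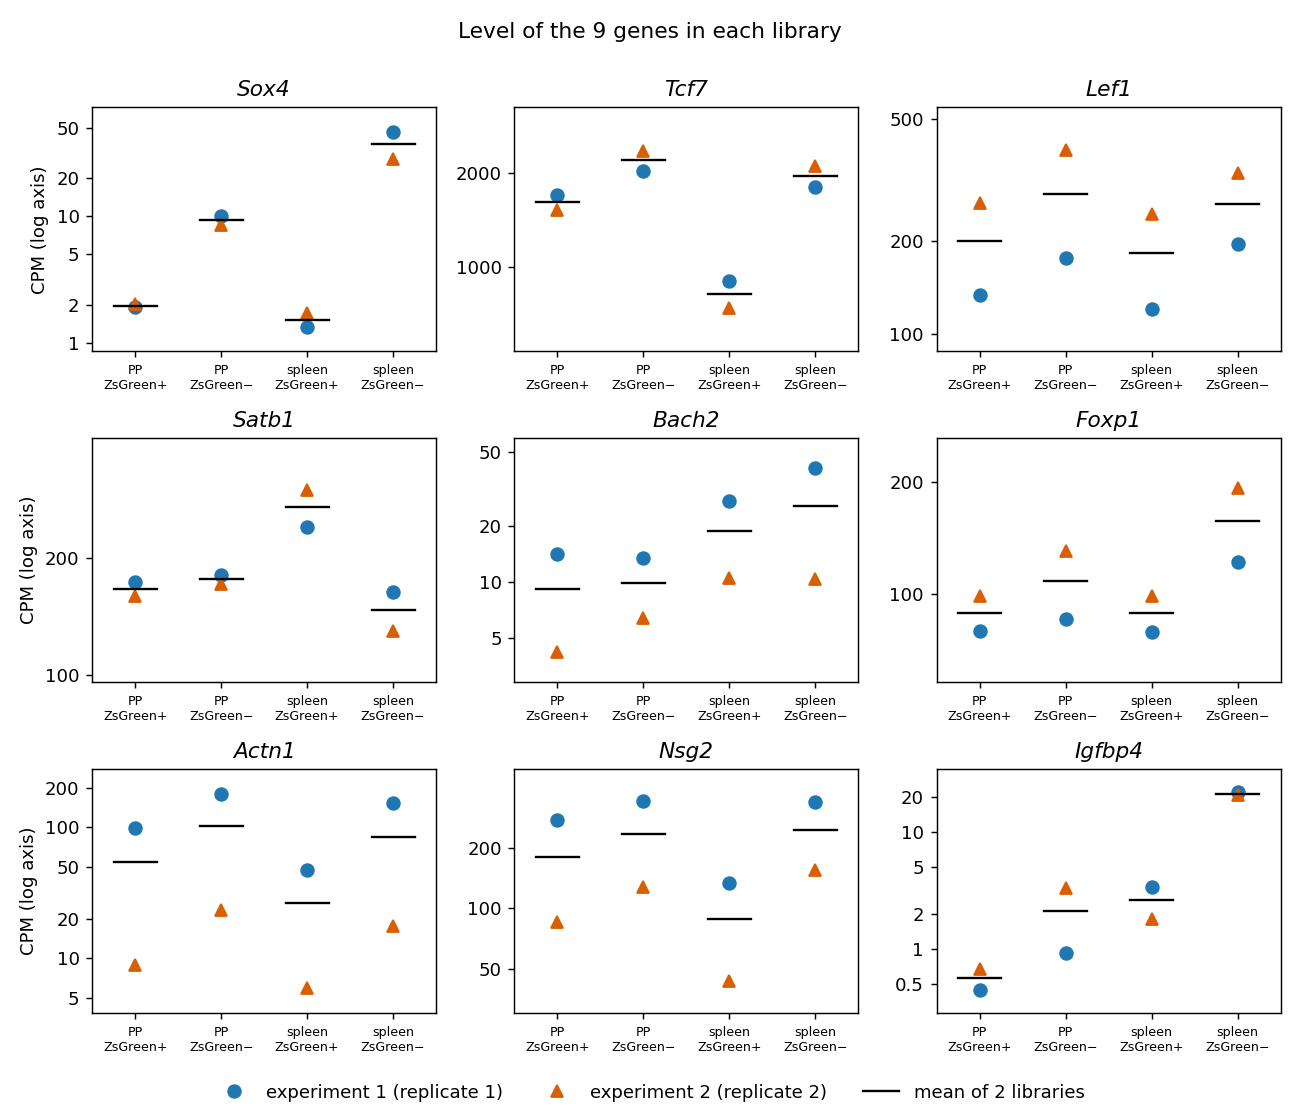
Level of each of the 9 genes (CPM, log axis) in the 4 groups, with experiment 1 as circles, experiment 2 as triangles and the mean of the 2 libraries as a bar. Sox4 is at 1.33 to 2.03 CPM in the 4 ZsGreen+ libraries and at 8.53 to 46.6 CPM in the 4 ZsGreen- libraries, whereas Actn1 separates first by experiment.

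Peyer's patch Tfh cells marked by the reporter (ZsGreen+) were first set against unmarked ones (ZsGreen-). All 9 had a fitted log2 fold change below 0, with a median of -0.45 against 0.00 for all 14418 genes tested. Of the 9, 2 fell at an adjusted p under 0.05, Sox4 and Actn1, and 0 rose; DESeq2 called the same 2, and 5 of the 9 had an unadjusted p under 0.05, as did 8.13% of all genes. Over all genes 0.153% fell and 0.284% rose. By the cut-off that the study set for genes higher in ZsGreen+ cells (1.5-fold or more, with an unadjusted p under 0.05), applied here in both directions, 3 of the 9 were lower and 0 higher, against 1.95% lower and 2.64% higher of all genes. Within experiments, 8 of the 9 were lower in both, the exception being Bach2, against 26.1% of all genes.

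The level of the HMG-box gene Sox4 in Peyer's patch was 1.91 and 2.03 CPM in ZsGreen+ libraries, against 10.1 and 8.53 CPM in ZsGreen- libraries, on 34 and 27 against 185 and 77 counts. The libraries of the groups did not overlap and replicates lay close together. The log2 fold change was -2.24 ± 0.30 (SE, n = 2 each, edgeR's quasi-likelihood test, adjusted p = 0.00821), a level 4.73-fold lower, with -2.32 within experiment 1 and -2.0 within experiment 2. Leaving out replicate 1 of Peyer's patch ZsGreen+ or either replicate of Peyer's patch ZsGreen- ended the call (highest adjusted p = 0.166), with values from -2.46 to -2.01 over all 8 omissions.

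Tcf7 had 1700 and 1520 CPM in ZsGreen+ and 2030 and 2350 CPM in ZsGreen- libraries of Peyer's patch. These values did not overlap, yet the log2 fold change of -0.45 ± 0.22 did not pass the threshold (adjusted p = 0.659), with -0.26 and -0.63 in experiments 1 and 2. Lef1 had 134 and 266 CPM in ZsGreen+ against 176 and 396 CPM in ZsGreen- libraries, which gave -0.49 ± 0.14 on the log2 scale (adjusted p = 0.311), or -0.40 and -0.57 in experiments 1 and 2. Its values overlapped between groups, experiment 2 being the higher in each.

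The other transcriptional regulators showed no call in Peyer's patch. Satb1 had 174 and 160 CPM in ZsGreen+ and 181 and 172 CPM in ZsGreen- libraries, nearly level, with a log2 fold change of -0.08 ± 0.16 (adjusted p = 0.951). Bach2 had 14.2 and 4.20 CPM in ZsGreen+ and 13.4 and 6.43 CPM in ZsGreen- libraries. Its log2 fold change was -0.21 ± 0.25 (adjusted p = 0.905), with 0.09 in experiment 1 and -0.60 in experiment 2. Foxp1 had 79.6 and 98.9 CPM in ZsGreen+ and 86.1 and 131 CPM in ZsGreen- libraries, overlapping, and was at -0.26 ± 0.14 (adjusted p = 0.693), with -0.11 and -0.40 within the experiments.

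Actn1 had 98.8 and 8.93 CPM in ZsGreen+ against 180 and 23.3 CPM in ZsGreen- libraries of Peyer's patch. Within each experiment the ZsGreen+ library was the lower, by log2 differences of -0.87 and -1.37, although the raw ranges overlapped across experiments. The fitted log2 fold change was -1.08 ± 0.15 (adjusted p = 0.0118), 2.11-fold lower, and the call was lost without either replicate of Peyer's patch ZsGreen- (highest adjusted p = 0.157). Nsg2 had 274 and 85.0 CPM in ZsGreen+ and 342 and 128 CPM in ZsGreen- libraries, lower in both experiments (-0.32 and -0.59), but its fitted value of -0.45 ± 0.16 did not pass (adjusted p = 0.423). Igfbp4 rested on few reads here, 8 and 9 counts in ZsGreen+ and 17 and 30 in ZsGreen- libraries, and its log2 fold change was -1.78 ± 0.66 (adjusted p = 0.486), with -0.85 and -2.09 in experiments 1 and 2. It moved between -2.72 and -0.62 when single libraries were left out, the smallest size being that without replicate 2 of Peyer's patch ZsGreen-.

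In spleen, the same comparison reached most of the set. Of the 9 genes, 7 fell (Sox4, Tcf7, Lef1, Foxp1, Actn1, Nsg2 and Igfbp4), against 4.09% of all genes, and 1 rose, Satb1, against 4.53% of all genes. Bach2 did not pass. The median log2 fold change of the 9 was -1.25, against -0.03 for all genes tested. By the same cut-off 6 were lower and 1 higher, against 7.47% and 6.4% of all genes. Within experiments 7 of the 9 were lower in both and Satb1 was higher in both, where 34.9% and 31.7% of all genes were. Without replicate 2 of spleen ZsGreen+ the 8 calls became 4, those of Sox4, Actn1, Nsg2 and Igfbp4.

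Sox4 stood at 1.33 and 1.71 CPM in spleen ZsGreen+ libraries (25 and 20 counts) against 46.6 and 28.1 CPM in spleen ZsGreen- libraries (871 and 183 counts). Spleen ZsGreen- libraries held the most Sox4 and spleen ZsGreen+ libraries the least in both experiments. The log2 fold change was -4.63 ± 0.31 (edgeR, adjusted p = 9.41e-06), 24.8-fold lower, with -4.99 and -3.93 in experiments 1 and 2. It passed with any library left out (highest adjusted p = 0.000171).

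Tcf7 had 897 and 738 CPM in ZsGreen+ against 1800 and 2100 CPM in ZsGreen- libraries of spleen, without overlap. It fell by 1.25 on the log2 scale (SE 0.22, adjusted p = 0.00541), to a level 2.38-fold lower, with -1.0 and -1.51 in experiments 1 and 2. It lost its call without replicate 2 of spleen ZsGreen+ (adjusted p up to 0.127). Its lowest spleen ZsGreen+ level, 281 CPM per kb, still lay above the highest Lef1 level of any library, 45.0 CPM per kb. Lef1 had 121 and 246 CPM in ZsGreen+ against 196 and 333 CPM in ZsGreen- libraries. It fell by 0.57 (SE 0.14, adjusted p = 0.0297), with -0.70 and -0.44 within the experiments, a call lost without either replicate of spleen ZsGreen+ or without replicate 1 of spleen ZsGreen- (highest adjusted p = 0.237).

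Satb1, the chromatin organiser, went the other way. It had 241 and 300 CPM in spleen ZsGreen+ and 164 and 130 CPM in spleen ZsGreen- libraries, which did not overlap. The log2 fold change was 0.88 ± 0.16 (adjusted p = 0.00601), 1.85-fold higher, with 0.56 and 1.20 in experiments 1 and 2. The call was lost without replicate 2 of either spleen group (highest adjusted p = 0.0957).

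Foxp1 had 79.1 and 99.2 CPM in ZsGreen+ against 122 and 193 CPM in ZsGreen- libraries of spleen, and fell by 0.79 (SE 0.14, adjusted p = 0.00512), with -0.62 and -0.96 within the experiments. Its call was lost without replicate 2 of either spleen group (highest adjusted p = 0.0801). Bach2 had 27.2 and 10.5 CPM in ZsGreen+ and 40.9 and 10.4 CPM in ZsGreen- libraries, a log2 difference of -0.59 in experiment 1 and 0.00 in experiment 2. Its fitted log2 fold change was -0.35 ± 0.23 (adjusted p = 0.433).

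Among the cytoskeletal, membrane and secreted products, Actn1 had 46.9 and 5.91 CPM in ZsGreen+ against 152 and 17.6 CPM in ZsGreen- libraries of spleen. It fell by 1.66 (SE 0.16, adjusted p = 0.000127), with -1.70 and -1.55 within the experiments. Nsg2 had 134 and 43.3 CPM in ZsGreen+ against 336 and 155 CPM in ZsGreen- libraries, without overlap, and fell by 1.58 (SE 0.16, adjusted p = 0.00017), with -1.33 and -1.83 within the experiments. Both passed with any library left out (highest adjusted p = 0.00508 for Actn1 and 0.00298 for Nsg2). Igfbp4 had 3.41 and 1.80 CPM in ZsGreen+ against 21.8 and 20.5 CPM in ZsGreen- libraries. It fell by 2.97 (SE 0.50, adjusted p = 0.00638), 7.81-fold lower, with -2.63 and -3.41 within the experiments. Leaving out a spleen ZsGreen+ library moved it to -3.90 (replicate 1) or -2.38 (replicate 2). It missed the threshold without replicate 1 of spleen ZsGreen- (adjusted p = 0.0564).

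**Figure D2:**
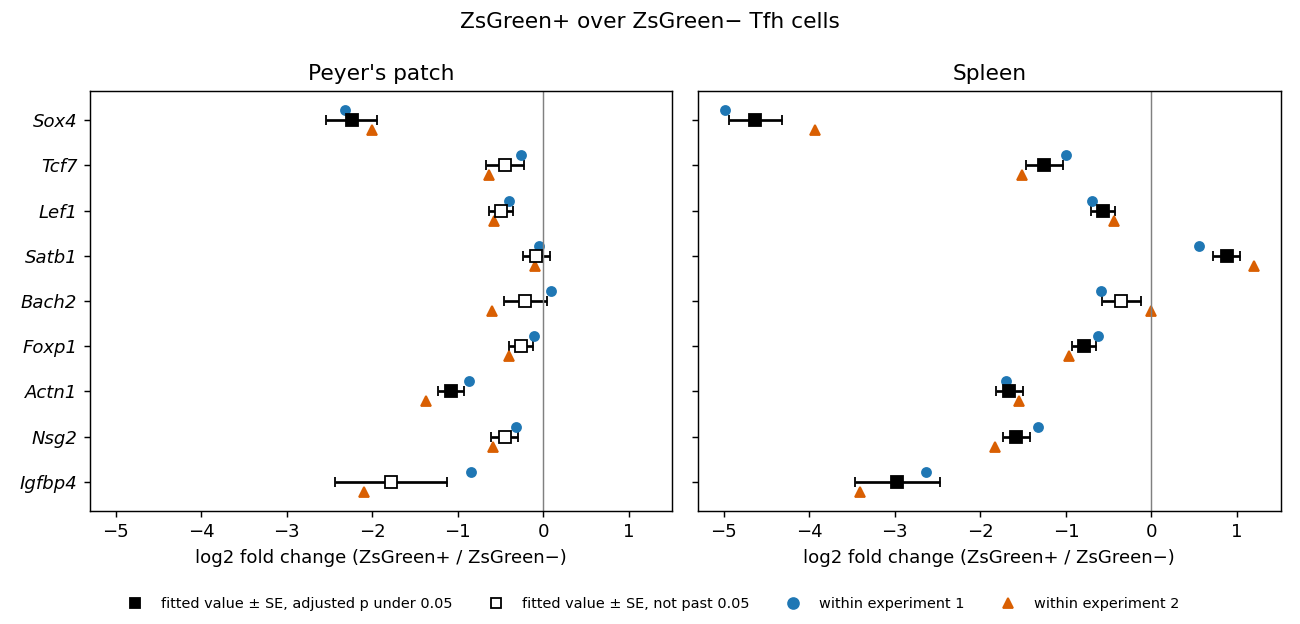
Log2 fold change of ZsGreen+ over ZsGreen- cells for the 9 genes in Peyer's patch and spleen, as fitted values with their SE (filled where the adjusted p is under 0.05) and as differences within experiment 1 (circles) and experiment 2 (triangles). Sox4 lies farthest to the left in both tissues, at -2.24 and -4.63, and Satb1 lies right of 0 in spleen at 0.88.

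Whether the sort contrast differed between the tissues was tested as the contrast of Peyer's patch minus that of spleen. By edgeR 0 of the 9 genes passed, where 0.0971% of all genes did, while 6 of the 9 had an unadjusted p under 0.05, where 8.48% of all genes did, and DESeq2 called 3 (Sox4, Satb1 and Nsg2). The nearest were Sox4 at 2.39 ± 0.43 (adjusted p = 0.0659), Nsg2 at 1.13 ± 0.22 (adjusted p = 0.0991) and Satb1 at -0.96 ± 0.23 (adjusted p = 0.162). Sox4 passed without replicate 2 of spleen ZsGreen- (adjusted p = 0.0362), and over all omissions its adjusted p went up to 0.44. Nsg2 passed without replicate 2 of Peyer's patch ZsGreen+ or without replicate 1 of spleen ZsGreen- (lowest adjusted p = 0.0173, highest 0.468). For Lef1 the difference was 0.09 ± 0.20 (adjusted p = 0.965), and for Bach2 0.14 ± 0.34 (adjusted p = 0.966).

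Tissue was then compared within each sort. These comparisons use the same libraries as the sort comparisons, so their values are not independent of them. In ZsGreen+ cells, 3 of the 9 genes were higher in Peyer's patch than in spleen (Tcf7, Actn1 and Nsg2, against 5.51% of all genes) and 3 were lower (Satb1, Bach2 and Igfbp4, against 7.17%). In ZsGreen- cells 4 were lower in Peyer's patch (Sox4, Bach2, Foxp1 and Igfbp4, against 3.68% of all genes), and edgeR and DESeq2 both called 0 higher, where edgeR called 1.82% of all genes higher.

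Tcf7 had 1700 and 1520 CPM in Peyer's patch ZsGreen+ against 897 and 738 CPM in spleen ZsGreen+ libraries, a log2 fold change of 0.98 ± 0.22 (edgeR, adjusted p = 0.0128). In ZsGreen- cells the Tcf7 difference was 0.17 ± 0.22 (adjusted p = 0.776). Nsg2 had 274 and 85.0 CPM in Peyer's patch ZsGreen+ against 134 and 43.3 CPM in spleen ZsGreen+ libraries (1.0 ± 0.16, adjusted p = 0.00149), and Actn1 was at 0.89 ± 0.16 (adjusted p = 0.00332). In ZsGreen- cells both missed the threshold, Nsg2 at -0.13 ± 0.16 (adjusted p = 0.763) and Actn1 at 0.32 ± 0.15 (adjusted p = 0.318).

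Sox4 had 10.1 and 8.53 CPM in Peyer's patch ZsGreen- against 46.6 and 28.1 CPM in spleen ZsGreen- libraries, a log2 fold change of -1.99 ± 0.26 (adjusted p = 0.000907), which passed with any library left out. Among ZsGreen+ cells its levels were near each other, with 1.91 and 2.03 CPM in Peyer's patch against 1.33 and 1.71 CPM in spleen (0.40 ± 0.35, adjusted p = 0.518). Igfbp4 had 0.925 and 3.32 CPM in Peyer's patch ZsGreen- against 21.8 and 20.5 CPM in spleen ZsGreen- libraries. It was 11.1-fold lower there (-3.47 ± 0.53, adjusted p = 0.00473) and 4.87-fold lower among ZsGreen+ cells (-2.28 ± 0.63, adjusted p = 0.0413). Leaving out a Peyer's patch ZsGreen- library moved the log2 value in ZsGreen- cells to -2.54 (replicate 1) or -4.64 (replicate 2). Leaving out a spleen ZsGreen+ library moved that in ZsGreen+ cells to -1.39 (replicate 1, adjusted p = 0.29) or -2.93 (replicate 2). With either ZsGreen+ library of Peyer's patch omitted, the ZsGreen+ value also missed the threshold (adjusted p = 0.308 for replicate 1 and 0.159 for replicate 2).

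Bach2 was lower in Peyer's patch in both sorts. It had 14.2 and 4.20 CPM in Peyer's patch ZsGreen+ against 27.2 and 10.5 CPM in spleen ZsGreen+ libraries (-1.10 ± 0.24, adjusted p = 0.0107), and 13.4 and 6.43 CPM in Peyer's patch ZsGreen- against 40.9 and 10.4 CPM in spleen ZsGreen- libraries (-1.24 ± 0.25, adjusted p = 0.012). Satb1 was lower in Peyer's patch among ZsGreen+ cells (-0.70 ± 0.16, adjusted p = 0.013), with 0.26 ± 0.16 (adjusted p = 0.456) among ZsGreen- cells. Foxp1 was at 0.00 ± 0.14 among ZsGreen+ cells (adjusted p = 0.995). In ZsGreen- cells it was lower, at -0.53 ± 0.14 (adjusted p = 0.0464), a call held in only 1 of the 8 fits that left out a library, the one without replicate 1 of Peyer's patch ZsGreen+ (highest adjusted p = 0.33). Lef1 passed in neither sort, at 0.13 ± 0.14 (adjusted p = 0.618) in ZsGreen+ and 0.04 ± 0.14 (adjusted p = 0.93) in ZsGreen- cells.

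Single libraries decided several tissue calls. Of the 6 in ZsGreen+ cells, Nsg2 alone was left when replicate 1 of Peyer's patch ZsGreen+ was omitted, and Tcf7, Actn1 and Nsg2 when replicate 2 of that group was. Omitting replicate 1 of spleen ZsGreen+ left Satb1, Bach2 and Nsg2, and omitting replicate 2 left Actn1, Nsg2 and Igfbp4. Of the 4 calls in ZsGreen- cells, those of Sox4 and Igfbp4 were left when replicate 1 of either ZsGreen- group was omitted.

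**Figure D3:**
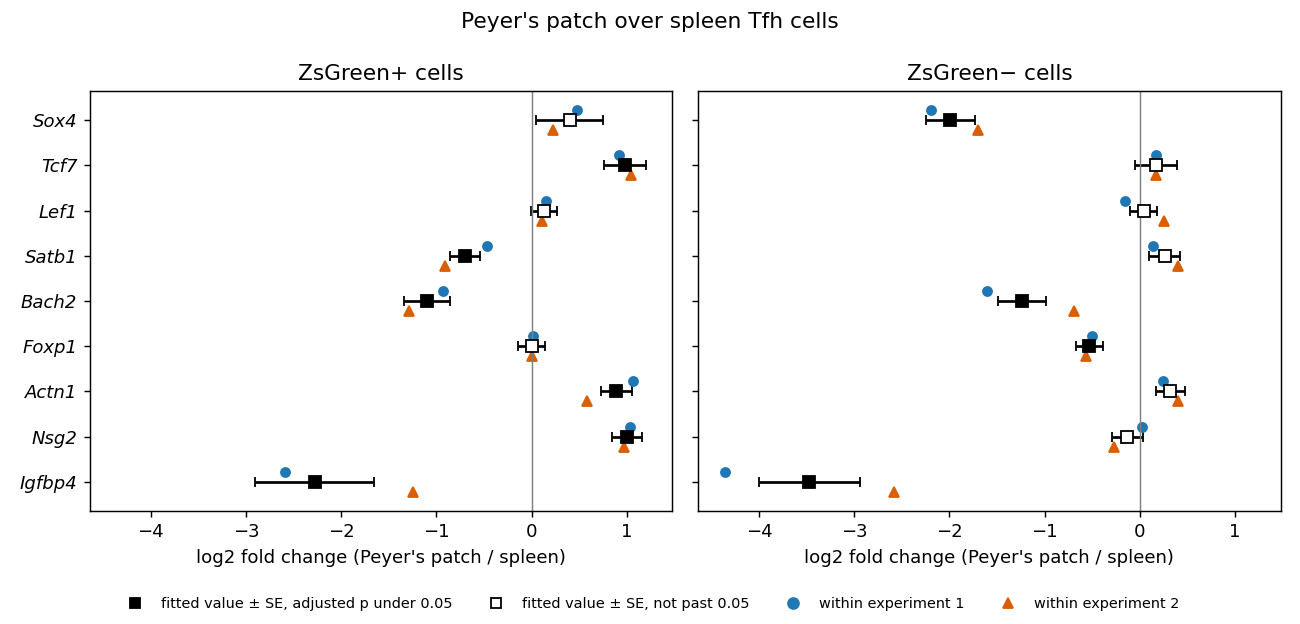
Log2 fold change of Peyer's patch over spleen for the 9 genes in ZsGreen+ and in ZsGreen- cells, with symbols as in the plot of the sort contrast. Tcf7, Actn1 and Nsg2 lie right of 0 with filled symbols in ZsGreen+ cells (0.98, 0.89 and 1.0), and Igfbp4 lies left of 0 in both sorts (-2.28 and -3.47).

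Ranked by mean level over both experiments, Sox4 ran from spleen ZsGreen- (37.3 ± 13.1 CPM, SD, n = 2) over Peyer's patch ZsGreen- (9.30 ± 1.09) to Peyer's patch ZsGreen+ (1.97 ± 0.0805) and spleen ZsGreen+ (1.52 ± 0.271). Of these neighbours, the ZsGreen+ groups of the tissues did not differ beyond the threshold. Tcf7 was highest in Peyer's patch ZsGreen- (2190 ± 229 CPM) and spleen ZsGreen- (1950 ± 211), whose libraries overlapped, then Peyer's patch ZsGreen+ (1610 ± 122) and spleen ZsGreen+ (818 ± 112). Satb1 had its top level in spleen ZsGreen+ (271 ± 41.2 CPM), and the other groups lay between 147 and 176 CPM. Igfbp4 stood highest in spleen ZsGreen- cells (21.2 ± 0.866 CPM), and the other 3 groups were between 0.562 and 2.60 CPM. For Lef1, Bach2, Foxp1, Actn1 and Nsg2 neighbouring groups overlapped once the experiments were put together.

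The 9 genes were set beside 19 other genes of naive and central memory T cells, of which 18 were tested. Over all genes, edgeR called 4.09% lower and 4.53% higher in spleen, and 0.153% lower in Peyer's patch. In spleen edgeR called 10 of the 18 lower and 0 higher, while 1 was higher at an unadjusted p under 0.05 and DESeq2 called 9 lower and 1 higher, with a median log2 fold change of -1.10 against -0.03 for all genes. The smallest p-values were those of the costimulatory receptor gene Cd27 at -1.90 ± 0.18 (adjusted p = 8.96e-05), the actin regulator gene Rflnb at -1.33 ± 0.14 (adjusted p = 0.000265) and Il6st, which encodes the shared signalling receptor of the interleukin 6 family, at -1.73 ± 0.19 (adjusted p = 0.000309). Of the 18, 1 fell in Peyer's patch, Rflnb (-0.77 ± 0.14, adjusted p = 0.0433), and the median was -0.34 against 0.00 for all genes. Rflnb had 326 and 288 CPM in ZsGreen+ against 540 and 502 CPM in ZsGreen- libraries of Peyer's patch. In spleen it had 107 and 84.0 CPM in ZsGreen+ against 251 and 229 CPM in ZsGreen- libraries.

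**Figure D4:**
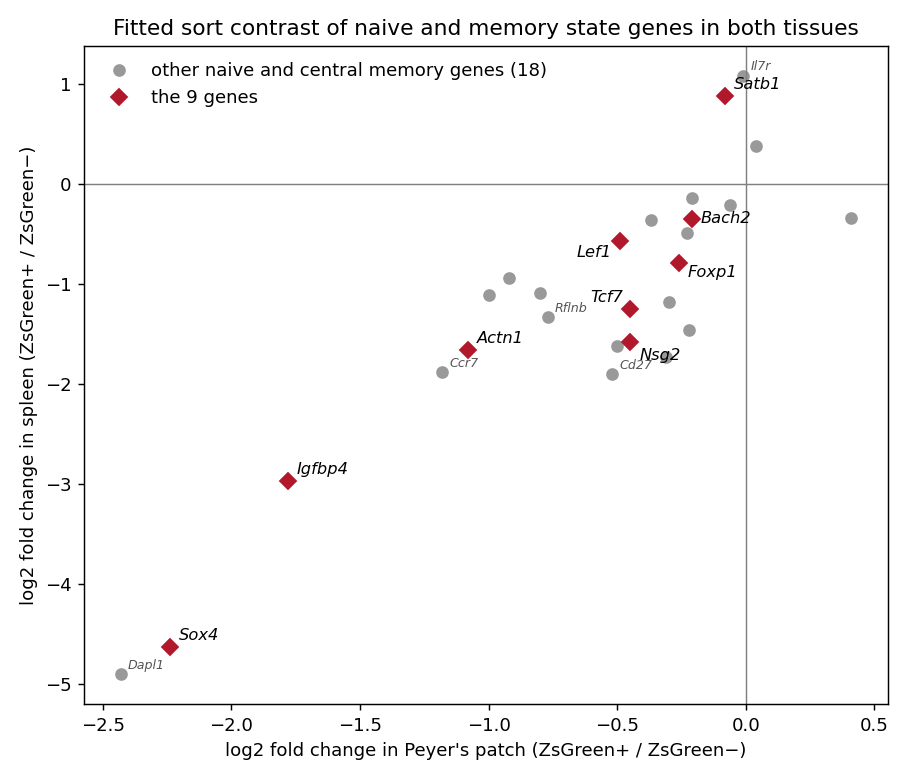
Fitted log2 fold change of ZsGreen+ over ZsGreen- cells in Peyer's patch (x axis) and in spleen (y axis) for the 9 genes (diamonds) and 18 other naive and central memory genes (circles, 5 of them labelled). Sox4 lies at -2.24 and -4.63, and Satb1 is the diamond above 0 on the spleen axis.

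TCF-1 and LEF-1 act with Groucho/TLE corepressors and with β-catenin. Of 17 tested genes of these partners and of the Wnt pathway, 0 rose and 2 fell in spleen, the corepressor gene Tle3 (-0.75 ± 0.15, adjusted p = 0.0116) and the β-catenin partner gene Bcl9 (-1.27 ± 0.27, adjusted p = 0.0131). The list's median was -0.18 against -0.03 for all genes, of which 4.09% fell. Neither edgeR nor DESeq2 called any of the 17 in Peyer's patch (0 and 0), of which 1 had an unadjusted p under 0.05, and the median was -0.07. Of 15 T cell quiescence genes 1 fell in spleen, the phosphoinositide 3-kinase inhibitor gene Pik3ip1 (-1.28 ± 0.21, adjusted p = 0.00354), a share near the 4.09% of all genes that fell. In Peyer's patch edgeR and DESeq2 both called 0 of the 15, and 3 had an unadjusted p under 0.05. Of 25 effector and memory-effector genes, 9 rose and 1 fell in spleen and 2 rose in Peyer's patch, with medians of 0.77 and 0.59. Over all genes 4.53% rose and 4.09% fell in spleen, and 0.284% rose in Peyer's patch.

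Over the 8 libraries, with log2 CPM centred within each experiment, the genes most like Sox4 by Pearson's r were Gzmk, which encodes granzyme K (r = 0.985), Phf11c (0.982), the Hippo pathway kinase gene Lats2 (0.98), the transcription factor gene Irf8 (0.978) and the elongation factor 2 kinase gene Eef2k (0.978). Most like Tcf7 were Cul9 (r = 0.994), the Tfh surface receptor gene Slamf6 (0.993), Rassf2 (0.992), Zer1 (0.992) and Dab2ip (0.991). These are descriptions over 8 libraries in 4 groups, chosen as the highest of all genes tested. Rank of likeness did not mean likeness in size: in spleen Gzmk had a log2 fold change of -7.49 and Phf11c one of -0.86, beside -4.63 for Sox4.

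Markers of other cell states moved along with these comparisons. By edgeR, 4.53% of all genes rose and 4.09% fell in the spleen sort, and 0.284% rose and 0.153% fell in the Peyer's patch sort. In Peyer's patch against spleen, 5.51% were higher and 7.17% lower in ZsGreen+ cells, and 1.82% higher and 3.68% lower in ZsGreen- cells. In spleen 13 of 15 proliferation genes rose in ZsGreen+ cells, with summed levels of 2050 and 3200 CPM in ZsGreen+ against 1030 and 1190 CPM in ZsGreen- libraries. In Peyer's patch edgeR and DESeq2 both called 0 of the 15, although 11 were higher at an unadjusted p under 0.05, with 727 and 1490 CPM in ZsGreen+ against 566 and 891 CPM in ZsGreen- libraries. Of 7 regulatory T cell markers, 4 fell and 1 rose in spleen and 2 fell in Peyer's patch, among them Foxp3 with -1.90 ± 0.30 (adjusted p = 0.00292) in spleen and -3.25 ± 0.47 (adjusted p = 0.0118) in Peyer's patch. The marker that rose in spleen was Il2ra, which encodes CD25, at 2.03 ± 0.39 (adjusted p = 0.0088), with 20.7 and 13.6 CPM in ZsGreen+ against 4.97 and 3.22 CPM in ZsGreen- libraries. The cells had been sorted as CD25-. Ctla4 was at 1.49 ± 0.83 in spleen (adjusted p = 0.426) and 0.95 ± 0.82 in Peyer's patch (adjusted p = 0.869). The summed level of the 7 markers was 390 and 1140 CPM in ZsGreen+ against 609 and 960 CPM in ZsGreen- libraries of spleen, and 642 and 610 CPM in ZsGreen+ against 432 and 587 CPM in ZsGreen- libraries of Peyer's patch. All 15 proliferation and all 7 regulatory markers were above 0 in every library. Between tissues, 13 of 15 proliferation genes were lower in Peyer's patch than in spleen among ZsGreen+ cells and 5 among ZsGreen- cells. Of 25 effector and memory-effector genes, 20 were lower in Peyer's patch among ZsGreen+ cells and 17 among ZsGreen- cells, with medians of -2.63 and -2.40. Of 14 immediate early and dissociation genes, edgeR called 2 lower in ZsGreen+ cells and 1 in ZsGreen- cells, and DESeq2 called 5 and 7, with medians of -1.36 in ZsGreen+ and -2.06 in ZsGreen- cells. In the sort contrasts edgeR and DESeq2 called 0 of these 14, with medians of -0.51 in spleen and -0.1 in Peyer's patch. They summed to 7210 and 18300 CPM in ZsGreen+ against 6010 and 39600 CPM in ZsGreen- libraries of spleen. Of the 7 regulatory markers, 3 were lower and 2 higher in Peyer's patch among ZsGreen+ cells, and 2 were lower among ZsGreen- cells. Of 15 Tfh genes, edgeR called 1 higher and 4 lower in spleen ZsGreen+ cells, and DESeq2 called 1 and 7, with a median of -0.41. Both called 0 in the Peyer's patch sort, with a median of 0.04. In spleen Cxcr5 had 124 and 105 CPM in ZsGreen+ against 351 and 390 CPM in ZsGreen- libraries, and Slamf1 63.3 and 145 against 27.0 and 63.6 CPM. Between tissues 6 were higher and 1 lower in Peyer's patch among ZsGreen+ cells, and 1 and 1 among ZsGreen- cells.

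Bach2 and Foxp1 are also expressed by B cells. The 10 measured B cell markers summed to 117 and 18.5 CPM in ZsGreen+ and 96.5 and 17.5 CPM in ZsGreen- libraries of Peyer's patch, and to 29.4 and 64.5 CPM in ZsGreen+ and 13.9 and 20.5 CPM in ZsGreen- libraries of spleen. By edgeR and DESeq2 0 of the 7 tested markers passed in the sort contrast of either tissue, with 0 in Peyer's patch and 3 in spleen at an unadjusted p under 0.05. Cd74 reached 61.3 CPM and Pax5 37 CPM, and the other markers did not exceed 6.47 CPM, the highest level of Cd79a. The larger sums thus rest mostly on Cd74 and Pax5. Cd79a and Ms4a1 were at 0 in 2 of the 8 libraries each. Over all genes, 5.51% were higher in Peyer's patch than in spleen among ZsGreen+ cells and 1.82% among ZsGreen- cells. Of the 7 markers, 2 were higher there among ZsGreen+ cells (Pax5 and Blnk) and 1 among ZsGreen- cells (Pax5). These, named after their values were seen, were Pax5 at 4.62 ± 0.44 (adjusted p = 5.55e-05) in ZsGreen+ and 2.78 ± 0.41 (adjusted p = 0.00194) in ZsGreen- cells, and the B cell adaptor gene Blnk (adjusted p = 0.0385), which was at 0 in 2 libraries, both of them spleen ZsGreen+. Pax5 encodes a transcription factor of the B lineage. In the spleen sort the markers differed in sign, with Pax5 at -1.55 ± 0.48 (adjusted p = 0.0726) and Ms4a1 at a positive fitted value (adjusted p = 0.0846). Of 8 gamma-delta T cell and innate lymphoid cell markers, edgeR called 2 higher (Blk and Kit) and 1 lower (Trdc) in spleen ZsGreen+ cells. In Peyer's patch it called 1 higher (Kit) and 0 lower. Over all genes 4.53% rose and 4.09% fell in spleen, and 0.284% rose and 0.153% fell in Peyer's patch. Trdc had 4.58 and 13.1 CPM in ZsGreen+ against 13.7 and 89.4 CPM in ZsGreen- libraries of spleen. The part of proliferating, effector, regulatory, gamma-delta T, innate lymphoid or B cells, or of a dissociation response, in the values of the 9 genes was not tested. Nor was that of the differences in Tfh genes.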

How the data were processed

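RNA was extracted with Trizol per the labels' protocols. Either poly A enrichment or a non-directional low-input kit made the libraries, per the labels' protocols, which do not assign them to samples. The submitters' processing notes list Partek, STAR, DESeq2 and mm39; their versions and roles are not given in the sources used. The deposited raw tables hold estimated counts per gene, which need not be whole: per library, 20.8% to 31.2% of values lie more than 0.01 from a whole number. The authors also deposited a normalized signal, equal to the estimated count times 1 factor per library (0.765 to 1.58). The 2 experiments list 18114 and 20397 genes, and the 16735 in both were used.

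Counts were rounded. With edgeR 4.0.16 (R 4.3.3), 14418 genes were tested after filterByExpr (minimum count 10, minimum total 15), with TMM scaling (factors 0.656 to 1.24) and a robust quasi-likelihood fit over all 8 libraries with group means and an experiment term (3 residual degrees of freedom). Tests were two-sided F tests with Benjamini-Hochberg adjustment over all genes tested and a threshold of 0.05. Levels are TMM-scaled CPM, per kb of merged exons in GENCODE M21 where genes are compared. Within-experiment differences and correlations used log2 CPM with a prior count of 2. SEs were derived from the F statistic. The scripts were tested on simulated counts.

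The description label assigns replicate 1 to experiment 1 and replicate 2 to experiment 2, so the replicate number marks a shared batch and enters as a block. Same-numbered libraries also deviated together from their group means, at r of 0.825 to 0.867 across genes for the 6 group pairs. Alternatives were the fit without the block, DESeq2 1.42.0, its size factors in edgeR, no filter and a stricter filter (50 counts in 2 libraries), a non-robust fit, limma 3.58.1 on log2(signal + 1), and leaving out each library. The 9 genes and the gene lists were chosen with earlier results of these data known, and some genes of the lists are not reported here. Named beside the 9 are the 5 genes most like Sox4 and Tcf7 and up to 3 called genes with the smallest p per list and direction.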

Additional observations from a re-analysis of the deposited data

Results flagged for a closer look

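Satb1 stood out because its sort contrast pointed opposite ways in the tissues in every library pair. Within experiments 1 and 2 the log2 difference of ZsGreen+ and ZsGreen- cells was -0.05 and -0.10 in Peyer's patch and 0.56 and 1.20 in spleen. The difference between the tissues, -0.96 ± 0.23, did not pass edgeR's test (adjusted p = 0.162), while DESeq2 gave an adjusted p of 0.0226 and leaving out single libraries gave 0.0534 to 0.591 by edgeR. In Peyer's patch the values within each experiment were smaller than the SE of the fitted contrast, 0.16.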

How the results depend on the processing

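Of 20 calls on the 9 genes over the 5 comparisons, 0 were made without the replicate block, where 0 of all genes passed in any comparison, so 0 of the 9 were called in Peyer's patch, spleen and both tissue comparisons; the 9 fitted values kept their sign in each comparison, and 2, 2, 1, 2 and 1 of the 9 had an unadjusted p under 0.05 (Peyer's patch sort, spleen sort, their difference, tissue in ZsGreen-, tissue in ZsGreen+). Over the other 6 alternatives with all libraries, 119 of 120 values of called genes passed again, the exception being Foxp1 between tissues in ZsGreen- cells in the non-robust fit (adjusted p = 0.0657). The difference of the sort contrasts, with 0 calls, had 3 by DESeq2 and 2 (Sox4 and Nsg2) without the low-count filter. Leaving out single libraries kept 123 of 160. The number of the 9 called then ranged from 0 to 2 for the Peyer's patch sort, 4 to 8 for the spleen sort, 0 to 1 for their difference, 2 to 4 for tissue in ZsGreen- and 1 to 6 for tissue in ZsGreen+ cells. A lone library of a group is then assumed to vary like the other groups.

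The values that changed sign were all uncalled ones. Foxp1 between tissues in ZsGreen+ cells was at -0.04 with DESeq2 size factors and by DESeq2, -0.01 without the low-count filter and -0.02 by limma on the signal, against 0.00. Over the omissions it lay between -0.11 and 0.10. Ranges that crossed 0 over the omissions were those of Bach2 in the Peyer's patch sort (-0.58 to 0.06), Lef1 and Bach2 in the difference of the sorts (-0.07 to 0.24 and -0.24 to 0.39), Lef1 and Nsg2 between tissues in ZsGreen- cells (-0.12 to 0.20 and -0.35 to 0.09) and Sox4 between tissues in ZsGreen+ cells (-0.01 to 0.72). The causes were not tested. Depth limits Igfbp4 in Peyer's patch (8 to 30 counts) and Sox4 in ZsGreen+ cells (20 to 34 counts).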

Other observations

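Among relatives of the 9 genes, 12 of 17 were in both tables and 10 were tested. In spleen edgeR called 2 of the 10 higher in ZsGreen+ cells (Actn2 and Igfbp7) and 1 lower (Foxp3). Over all genes 4.53% rose and 4.09% fell there. In Peyer's patch it called 1 higher (Igfbp7) and 1 lower (Foxp3), against 0.284% and 0.153% of all genes. Actn2 did not pass in Peyer's patch (1.97 ± 0.46, edgeR, adjusted p = 0.153). The α-actinin 2 gene Actn2, known from muscle, rose in spleen ZsGreen+ cells, with 13.7 and 34.3 CPM against 0.856 and 1.07 CPM in spleen ZsGreen- libraries (log2 fold change 4.37 ± 0.46, edgeR, adjusted p = 0.000308), while Actn1 fell there by 1.66. Igfbp7, which encodes a secreted protein related to IGFBP4, rose in both tissues, by 3.40 ± 0.41 in spleen (adjusted p = 0.00105) and by 4.57 ± 0.74 in Peyer's patch (adjusted p = 0.0332). It had 26.0 and 40.3 CPM in ZsGreen+ against 2.67 and 3.22 CPM in ZsGreen- libraries of spleen. In Peyer's patch it had 1.46 and 5.33 CPM in ZsGreen+ against 0 and 0.332 CPM in ZsGreen- libraries, where the fitted value depends on the prior count. The fitted Igfbp4 and Igfbp7 values thus had opposite signs in both tissues. In Peyer's patch, however, the Igfbp4 value was not called (-1.78 ± 0.66, edgeR, adjusted p = 0.486) and rested on few reads.

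A list of 14 T lineage genes held transcription factor genes and Themis, which encodes a signalling adaptor. Of the 14, 1 rose and 4 fell in spleen ZsGreen+ cells, against 4.53% and 4.09% of all genes. Rora, which encodes a nuclear receptor expressed in several helper T cell types, was at 214 and 566 CPM in ZsGreen+ against 84.0 and 153 CPM in ZsGreen- libraries of spleen (1.66 ± 0.27, adjusted p = 0.0113). Bcl11b, required for T cell commitment, had -0.65 ± 0.15 (adjusted p = 0.0224), Tox -0.75 ± 0.18 (adjusted p = 0.0275) and Themis -0.50 ± 0.13 (adjusted p = 0.0374). In Peyer's patch edgeR and DESeq2 both called 0 of the 14, and 5 had an unadjusted p under 0.05.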
